A study of Mus musculus with 4 samples.

Results

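Elongin B and elongin C are small proteins that form a pair. *Elobl* (elongin B-like) is a gene that resembles the one for elongin B, and its mRNA was the most abundant of all in 3 of 4 libraries of mouse oocytes. It was followed here with 6 genes whose proteins work with the pair: *Elob* (elongin B), *Eloc* (elongin C), *Eloa* (elongin A), *Vhl*, *Cul2* and *Cul5*. These 7 genes are all listed in the table, among 21957 in all. *Elobl* was chosen on its measured rank in these same libraries. The others were chosen for their known roles in or with the elongin pair, but also with earlier results of these data known. The ranks and levels of the 7 genes are therefore given as a description. No p-value stands behind any value, because each condition was 1 library of 100 pooled oocytes with no replicate check.

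In cells, the elongin B and C pair is an adaptor. It holds substrate receptors that carry a BC box, such as VHL, or a SOCS box, and joins them to the scaffolds CUL2 or CUL5, which with a RING protein, RBX1 or RNF7, form ubiquitin ligases that mark proteins for degradation. With elongin A the same pair forms a factor that stimulates elongation by RNA polymerase II. Growing mouse oocytes store large amounts of maternal mRNA, and transcription is silent from the end of growth through meiosis, and stored mRNAs are translated or degraded in turn.

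Oocytes at the germinal vesicle (GV) stage, arrested in the first meiotic prophase, were taken from gonadotropin-primed B6D2F1 females of 6 to 8 weeks, stripped of cumulus cells, and used at 0 h or cultured for 12 h. The MII library held oocytes matured without the drug and kept only if a polar body had been extruded. The TubA10 and TubA20 libraries held oocytes cultured with 10 or 20 μM tubastatin A, an inhibitor of the deacetylase HDAC6, and no such selection is stated for them, so drug and meiotic stage cannot be told apart. The doses are those of the sample titles. The sample descriptions, TubA10 and TubA20, and the 10 and 20 μM groups of the paper go with them. The treatment field of the labels gives 20 μM for TubA10 and 11 μM for TubA20, which reverses their order. Every comparison of the doses rests on the titles and the names that go with them. Levels are FPKM, in which the fragments of a gene are scaled to its length and to the depth of its library. Changes are differences in log2(FPKM + 1), which understates changes of low genes, and a change past 2-fold on that scale is called higher or lower. Where 4 values of a gene follow each other without labels, GV comes first, then MII, TubA10 and TubA20, and values with a sign are log2 changes.

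The libraries held the 12 oocyte markers at 1 FPKM or more in every case. The 12 cumulus and granulosa markers summed to between 10.97 and 16.99 FPKM. *Foxl2* was listed at 0 in every library and *Amh* in all but GV, while *Cyp19a1* had 6.14, 8.60, 7.42 and 10.3 FPKM, *Inha* 7.50 in GV alone, *Kitl* up to 2.75 in MII, and *Tnfaip6* (1.57) and *Ptx3* (1.19) passed 1 FPKM in TubA20. Their part in the results was not tested. The 6 blood markers summed to at most 0.0779 FPKM. The deposited values give no read counts. The step of 1 fragment among genes of very low FPKM put TubA20 at 0.892 times the fragments of GV and, with fewer genes lying on the step, MII roughly at 1.63 and TubA10 at 1.70 times. This is an estimate of the fragments behind the FPKM, not of the reads sequenced, and no result rests on it. FPKM is a share of a library's captured mRNA, so less of 1 mRNA and more of the others cannot be told apart in it. Capture was by the poly(A) tail, on oligo(dT) beads. Whether tail length, rather than amount, moved any value was not tested. The median change of genes reaching 5 FPKM in either library compared was 0.11 in MII, 0.15 in TubA10 and 0.23 in TubA20 against GV, and the changes below stand against those medians.

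*Elobl* lies on chromosome 11 (chr11:88964658-88966931, minus strand, GRCm38, which is mm10), and its whole coding part sits in 1 exon. Its longest annotated mRNA has 819 bases. *Elob* lies at chr17:23824738-23829136, also on the minus strand, with a coding part in 4 exons and an mRNA of 537 bases. Because the genes are alike, the question for an FPKM table is how far their reads can be told apart. The first 300 coding bases of each mRNA are shown from the start codon, 5′ to 3′, with capitals where the genes differ. They were read from GENCODE M21 transcripts and correspond to chr11:88964936-88965235 for *Elobl* and, spliced over 4 exons, to chr17:23824924-23829085 for *Elob*.
Elobl: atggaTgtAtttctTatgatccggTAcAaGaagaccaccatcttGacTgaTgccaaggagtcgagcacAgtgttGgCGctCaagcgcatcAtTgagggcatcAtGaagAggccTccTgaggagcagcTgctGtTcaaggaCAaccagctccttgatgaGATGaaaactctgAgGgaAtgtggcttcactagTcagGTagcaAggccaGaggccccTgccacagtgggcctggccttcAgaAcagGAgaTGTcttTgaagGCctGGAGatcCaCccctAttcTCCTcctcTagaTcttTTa
Elob: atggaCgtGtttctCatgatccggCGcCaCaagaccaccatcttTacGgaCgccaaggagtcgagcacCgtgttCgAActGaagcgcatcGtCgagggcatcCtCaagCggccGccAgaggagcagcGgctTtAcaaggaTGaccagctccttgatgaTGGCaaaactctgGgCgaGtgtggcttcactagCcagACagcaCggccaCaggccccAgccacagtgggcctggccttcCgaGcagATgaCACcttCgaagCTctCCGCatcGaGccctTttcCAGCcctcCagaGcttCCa
Of these 300 bases 235 were identical (78.3%) and 65 differed. Of the 100 codons 53 were identical, 21 differed but encode the same residue, and 26 encode another residue. The longest run of identical bases was 21, far shorter than a read of 100 bases. The coding part of *Elobl* has 161 codons and that of *Elob* 118.

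**Figure D1:**
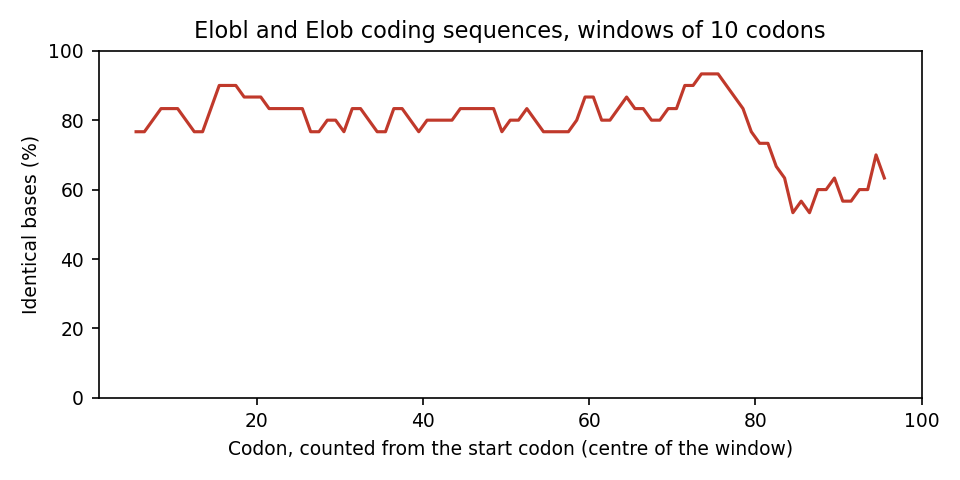
Share of identical bases (%) between the coding sequences of *Elobl* and *Elob* in sliding windows of 10 codons, plotted at the centre of each window in codons from the start codon. The share is highest at 93.3% in the windows that start at codons 69, 70 and 71 and falls to 53.3% in the windows that start at codons 80 and 82.

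Windows of 100 bases were counted that occur in no annotated transcript of another gene. For *Elobl* these were 707 of 720 (98.2%), and the other 13 are shared with *Coil*, the coilin gene, a transcript of which holds a stretch 92.5% identical over 305 bases, and with the pseudogene *2210409E12Rik*. *Coil* was at 3.36, 5.71, 3.54 and 5.17 FPKM in GV, MII, TubA10 and TubA20. For *Elob* 399 of 438 windows (91.1%) were its own, the rest being shared with processed pseudogenes that are not in the table. *Eloc*, *Eloa*, *Vhl*, *Cul2* and *Cul5* shared none. Near copies exist all the same. At 90% identity or more over at least 100 bases, 2 other genes aligned to *Elobl*, 6 to *Elob* and 4 to *Eloc*. Those of *Elob* and *Eloc* are not in the table. Among them are *CT033749.1* for *Elob* (98.0% over 355 bases) and *Gm30155* for *Eloc* (92.9% over 336 bases). How the authors' counting treated reads that fit several places was not tested.

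The FPKM of *Elobl* was 7797 for GV, 8620 for MII, 10098.5 for TubA10 and 3597 for TubA20. It ranked first in GV, MII and TubA10 and 10 in TubA20, where its level was the lowest of the 4. The runner-up was *Dppa3*, a maternal factor that protects DNA methylation, at 5806 FPKM in GV and 8610 in TubA10. In MII the runner-up was *H1foo*, the oocyte linker histone, at 7977. In TubA20 *H1foo* led at 8806, ahead of *Dppa3* at 7960 and of *Pttg1* (securin) at 7145. *Ldhb*, a lactate dehydrogenase subunit, was among the 5 highest genes of every library, at 3481, 6148, 6073 and 6913 FPKM, and unlike *Elobl* it was highest in TubA20. *Gm813* at 3506 FPKM in GV and *Oosp1*, an oocyte-secreted protein, at 6213 in TubA20 complete these lists. *Elobl* mRNA made up 1.25% of all FPKM in GV, 1.52% in MII, 1.71% in TubA10 and 0.573% in TubA20.

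**Figure D2:**
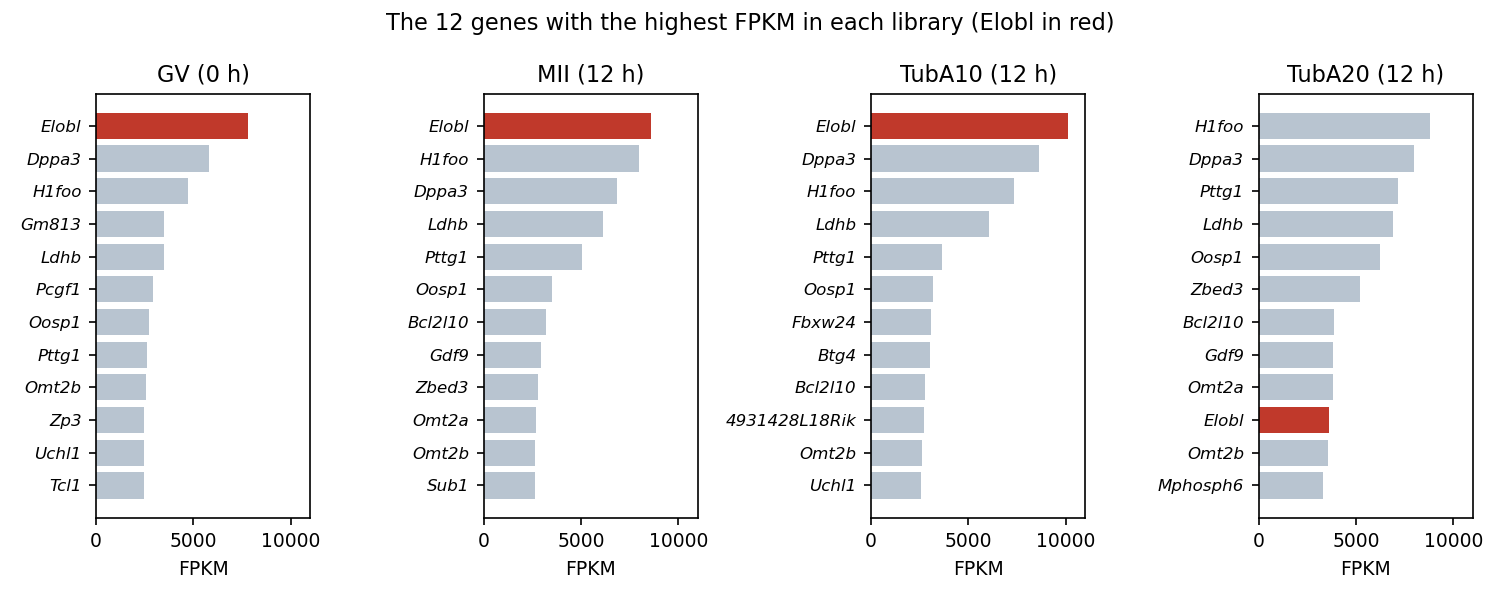
The 12 genes with the highest FPKM in each of the 4 libraries, with bars from 0 on a linear FPKM axis and *Elobl* in red. *Elobl* leads in GV, MII and TubA10 and is in place 10 in TubA20.

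The order is one of FPKM, which divides by length, and *Elobl* mRNAs are short. With FPKM multiplied by the longest annotated transcript, an alternative chosen after seeing the data that approximates a share of fragments, *Elobl* was in place 6 in GV, 8 in MII, 4 in TubA10 and 64 in TubA20. The library with the lowest place was TubA20 by either measure.

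From GV to MII *Elobl* differed by 0.14 on the log2 scale, and from GV to TubA10 by 0.37. In TubA20 it fell by 1.12 against GV, a 2.17-fold lower FPKM, and the FPKM was 2.40-fold lower than in MII (log2 change -1.26) and 2.81-fold lower than in TubA10 (-1.49). TubA10 was above MII by 0.23. Under all scalings and pseudocounts tried, the log2 change of *Elobl* in TubA20 against GV lay between -1.34 and -1.05, past 2-fold and short of 3-fold. These differences enter the rank on which *Elobl* was chosen, and they are given as a description, also where they stand beside those of other genes.

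*Elob*, the ubiquitous elongin B gene, had an FPKM of 129 in GV, 165 in MII, 126 in TubA10 and 145 in TubA20. These 4 levels differed by at most 0.39 on the log2 scale, between MII and TubA10, and no comparison passed 2-fold. Its place among all genes lay between 671 in MII and 974 in GV. *Elobl* held 98.4% of the summed FPKM of *Elobl* and *Elob* in GV, 98.1% in MII, 98.8% in TubA10 and 96.1% in TubA20. Whether its product acts as an elongin B was not tested. The ratio of *Elobl* to *Elob* was 60.5, 52.1, 80.2 and 24.8 in the same order, so it was lowest in TubA20 but *Elobl* stayed far above *Elob* in every library. Together both genes summed to 7925 FPKM in GV and 3742 in TubA20.

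*Eloc*, the elongin B partner (chr1:16641725-16657042), had an FPKM of 2419 in GV, 1113 in MII, 2248 in TubA10 and 836 in TubA20. It was high in GV and TubA10 and low in MII and TubA20, an order that *Elobl* did not share. Its places were 13, 50, 21 and 104. From GV it fell to a log2 change of -1.12 in MII and of -1.53 in TubA20, and in TubA10 it was at -0.11. TubA10 was higher than MII by 1.01, just past 2-fold, and TubA20 was lower than TubA10 by a log2 change of -1.43, while TubA20 against MII was at -0.41. Both calls that involve MII rest on the scaling. With FPKM brought to equal sums, *Eloc* in MII against GV was at -0.99, and TubA10 against MII was at 0.96, so neither passed 2-fold. The ratio of *Elobl* to *Eloc* was 3.22 in GV, 7.74 in MII, 4.49 in TubA10 and 4.31 in TubA20, and was thus highest in MII.

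*Eloa*, the elongation subunit (chr4:136003368-136021763), had an FPKM of 5.68 in GV, 10.2 in MII, 6.62 in TubA10 and 8.49 in TubA20. It was lowest in GV and highest in MII, with a log2 difference of 0.75 that did not pass 2-fold. Per length, its mRNA was far below those of *Elobl* and *Eloc* in every library. *Vhl*, the tumour suppressor that receives hydroxylated HIF (chr6:113623959-113631633), was at 0.738, 0.234, 0.323 and 0.390 FPKM in GV, MII, TubA10 and TubA20. It stayed below 1 FPKM in every library, in places 10785 to 12165, and its largest difference from GV on the log2 scale was -0.49 in MII. With a pseudocount of 0.1 in place of 1 that difference was -1.33, and it rests on values near the low end of the table.

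The scaffolds were also at modest levels. *Cul2* (chr18:3382988-3436377) had an FPKM of 7.06 in GV, 8.63 in MII, 8.51 in TubA10 and 8.78 in TubA20, with no difference above 0.28. *Cul5* (chr9:53614582-53670014) was at 24.9, 40.5, 35.9 and 48.8 FPKM. It was lowest in GV and highest in TubA20, by 0.94 on the log2 scale, which missed 2-fold, though with equal *Gapdh* the difference was 1.01. *Cul5* exceeded *Cul2* 3.53-fold in GV, 4.70-fold in MII, 4.22-fold in TubA10 and 5.56-fold in TubA20.

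**Figure D3:**
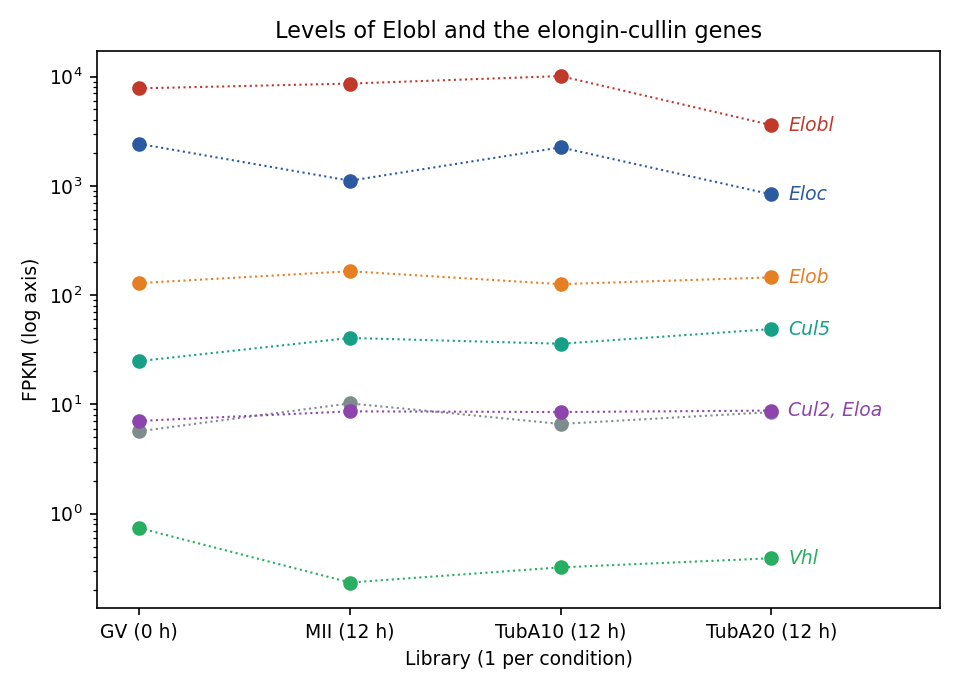
FPKM of the 7 genes in each library (log axis, 1 point per library, dotted lines join the points of a gene, *Cul2* in purple and *Eloa* in grey). *Elobl* and *Eloc* lie above the others in every library and are lowest in TubA20, while *Vhl* stays below 1 FPKM.

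Against GV, 1 of the 7 genes was called in MII, *Eloc*, which was lower. Of all genes 3.05% were called higher and 8.34% lower in that comparison, and of those that reached 5 FPKM in either library 8.26% and 20.8%. In TubA10 against GV none of the 7 was called, with no test behind the call, beside 0.742% higher and 5.60% lower of all genes and 1.77% and 14.2% with the 5 FPKM minimum. In TubA20 against GV 2 were lower, *Elobl* and *Eloc*. The backgrounds there were 7.61% higher and 11.7% lower of all genes, and 20.2% and 26.8% of those with at least 5 FPKM. Nothing is read from the 2 of 7 beside them, since 1 of the 2 is *Elobl* and *Vhl* did not reach that minimum.

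Against MII, 1 of 7 was higher in TubA10, *Eloc*, beside 0.515% higher and 0.128% lower of all genes and 1.29% and 0.206% of those with at least 5 FPKM. In TubA20 1 of 7 was lower, *Elobl*, beside 0.328% higher and 2.44% lower of all genes and 0.542% and 6.09% with the minimum. Between the doses 2 were lower in TubA20 than in TubA10, *Elobl* and *Eloc*. In that comparison 0.660% of all genes were higher and 5.52% lower, and 1.45% and 14.1% with the minimum. These comparisons share libraries, so the same GV, MII or TubA20 value enters several of them. The median change of the 7 was 0.26 in MII, 0.19 in TubA10 and 0.17 in TubA20 against GV, where the median was 0 over all genes and, as given above, 0.11, 0.15 and 0.23 over those reaching 5 FPKM. The 7 went both ways in each comparison, so this median describes no shared direction.

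**Figure D4:**
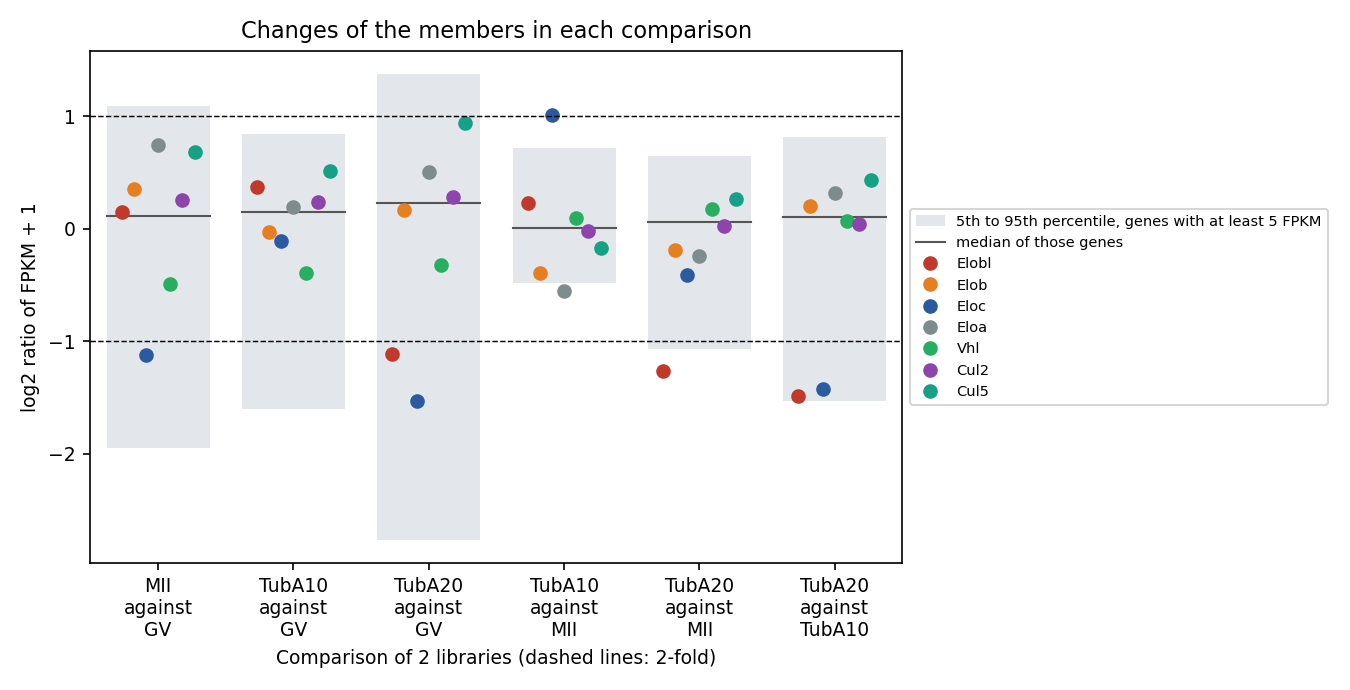
Difference in log2(FPKM + 1) of each of the 7 genes (coloured points) in 6 comparisons of 2 libraries, over the 5th to 95th percentile (grey) and median (line) of genes reaching 5 FPKM in either library, with 2-fold as dashed lines. *Elobl* is below the lower dashed line in the 3 comparisons of TubA20, and *Eloc* in 2 of these and in MII against GV.

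Of the 1264 genes with at least 100 FPKM in GV, a set chosen by its GV level, 36.2% were lower and 4.03% higher in MII, 26.9% and 0.712% in TubA10, and 41.4% and 15.7% in TubA20, all against GV. The 5 genes nearest to *Elobl* by the distance of their 3 log2 changes from GV, among the 1263 others at that level, were *Vkorc1* (vitamin K epoxide reductase subunit, distance 0.22), *Med28* (Mediator subunit, 0.28), *Padi6* (a protein of the oocyte lattices, 0.31), *Cetn2* (centrin, 0.32) and *Rps2* (ribosomal protein, 0.36). *Vkorc1* was at 559, 684, 714 and 229 FPKM and *Padi6* at 833, 776, 987 and 350. These genes were picked for their likeness to *Elobl*, so the likeness itself is no finding.

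The rest of the pathway was followed in 7 lists of 127 genes in all, each in the table. In MII against GV 6 of the 127 were higher and 11 lower. In TubA20 against GV 13 were higher and 21 lower, and in TubA20 against MII 0 were higher and 5 lower, all without a test. TubA10 had 2 higher and 8 lower against GV and 0 called against MII, and between the doses 2 were higher and 7 lower in TubA20. The shares of all genes were 0.742% and 5.60%, 0.515% and 0.128%, and 0.660% and 5.52% in these 3 comparisons. For MII against GV, TubA20 against GV and TubA20 against MII they were 3.05% and 8.34%, 7.61% and 11.7%, and 0.328% and 2.44%. Of the list genes reaching 5 FPKM, 5 and 9 of 70 were called in MII against GV, 13 and 14 of 72 in TubA20 against GV and 0 and 5 of 71 in TubA20 against MII, beside 8.26% and 20.8%, 20.2% and 26.8%, and 0.542% and 6.09% of all genes at that minimum. The split in MII against GV depended on the scaling: it was 2 higher and 11 lower with the median change brought to 0, 8 and 7 for equal sums without the 10 most abundant genes, and 12 and 5 with equal *Gapdh*. In TubA20 against GV it was 4 and 22 once the median change was brought to 0, and in TubA10 against GV 5 and 6 with equal *Gapdh*. Between the doses 0 were higher under each of the 5 scalings and 7 to 11 were lower. For the genes named below, a call that any of these scalings ended is marked beside its value.

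Of the 22 genes for RING proteins, E2 enzymes and the neddylation that activates cullins, 5 were higher and 3 lower in TubA20 than in GV, with a median change of 0.63 beside 0 over all genes. Over the 19 that reached 5 FPKM the median was 0.69, beside 0.23 over all genes at that minimum. The same pair of medians follows for each list. The shares of all genes given above, 7.61% higher and 11.7% lower, stand beside the TubA20 against GV counts of each list. With the 5 FPKM minimum they were 20.2% and 26.8%. Among the 5 higher genes were *Cdc34* (1.11), *Dcun1d4* (1.10) and *Ube2d2a* (1.14). With the median change at 0 they were not called (0.89, 0.90 and 0.91). *Rnf7*, the RING partner of CUL5, was at 20.4, 22.4, 29.7 and 8.37 FPKM, low in TubA20 and highest in TubA10, and fell to a log2 change of -1.19 against GV and of -1.32 against MII. *Ube2f*, the NEDD8 E2 that serves CUL5, was at 17.6, 9.59, 11.6 and 3.54 FPKM and fell to -2.03 against GV and to -1.22 against MII. *Uba3*, a subunit of the NEDD8 E1, was at 28.0, 58.4, 53.8 and 70.1 FPKM and rose by 1.29 in TubA20 against GV, while its 1.03 in MII became 0.89, not called, with the median change at 0. *Ube2d1*, a ubiquitin E2, was at 5.09, 7.82, 9.22 and 15.1 FPKM and rose by 1.40 in TubA20. *Rbx1*, the RING partner of CUL2, named here after its values were seen, was at 260.5, 284, 280 and 409 FPKM and was not called (0.65 in TubA20 against GV). *Cul5*, not called, was at its highest FPKM in TubA20, the library in which *Rnf7* and *Ube2f* were at their lowest. *Rnf7* and *Ube2f* were named for the size of their change in TubA20 against GV, so nothing is read from this contrast. *Skp1a*, the adaptor that stands in CUL1 ligases where the elongin pair stands in CUL2 and CUL5 ligases, was at 919, 798, 1068 and 386 FPKM and fell by 1.25 in TubA20 against GV. Its scaffold *Cul1* was at 389, 682, 581 and 847 FPKM and was called higher in TubA20 against GV at 1.12, but not with the median change at 0 (0.90). Of the 7 genes for other cullins and SKP1, these were the 1 higher and the 1 lower, and *Cul4a* (0.73) and *Cul4b* (0.34) did not pass 2-fold. The median change in TubA20 against GV was -0.06 over the 7 and 0.34 over the 5 that reached 5 FPKM, so its sign turned with the minimum.

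Among the 11 genes for CUL2 receptors, 1 was higher and 1 lower in TubA20 than in GV, and the median change was -0.43, or -0.04 over the 6 that reached 5 FPKM. *Klhdc2*, which reads C-terminal glycine degrons, was at 243, 371, 403 and 528 FPKM and was called at 1.12 in TubA20 against GV, but not with the median change at 0 (0.89). *Klhdc10* was at 26.4, 11.0, 13.1 and 5.29 FPKM and fell to -2.12 in TubA20 against GV, while its -1.19 in MII was no longer called with equal *Gapdh*. *Lrr1* was at 0.95 and *Klhdc3* at -0.87 in TubA20 against GV, neither past 2-fold. *Lrr1* itself had 128, 176, 176 and 248 FPKM, and both it and *Klhdc2* were well above *Vhl* in every library.

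The 41 genes for CUL5 receptors with a SOCS box were mostly at low levels: 17 were below 1 FPKM in every library and 11 reached 5 FPKM in at least 1. In TubA20 against GV 2 were higher and 5 lower, and the median change was 0, or 0.82 over those 11. *Socs6* was at 23.5, 66.2, 52.6 and 84.6 FPKM and rose by 1.45 in MII and 1.80 in TubA20 against GV, while its 1.13 in TubA10 became 0.97, not called, with the median change at 0. *Asb4* was at 4.26, 9.73, 5.92 and 10.6 FPKM and was called at 1.03 in MII and 1.14 in TubA20 against GV, but in neither with the median change at 0 (0.90 and 0.93). *Asb8* was at 43.4, 18.5, 32.3 and 16.5 FPKM, and fell to -1.34 in TubA20 against GV, while its -1.19 in MII was no longer called with equal *Gapdh*. *Socs7* was at 0.98 in TubA20 against GV, just short of 2-fold.

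Of the 26 genes for elongation by RNA polymerase II, 2 were higher and 7 lower in TubA20 than in GV. The median change of the list was 0.22, or 0.10 over the 21 that reached 5 FPKM in GV or TubA20. *Tcea1*, 1 of the 2 higher genes, was at 1.003. It was not called with the median change at 0 (0.78), equal FPKM sums (0.9997) or equal upper quartiles (0.95). *Supt4a*, a DSIF subunit, was at 211, 35.5, 48.1 and 26.2 FPKM, so it was high in GV alone, and fell to -2.54 in MII and to -2.96 in TubA20. *Ell3*, an elongation factor, was at 23.6, 10.1, 9.99 and 2.33 FPKM and fell to -2.88 against GV and to -1.74 against MII. *Gtf2f1* (TFIIF) was at 132, 58.6, 46.2 and 51.0 FPKM and was lower than GV in all 3 cultured libraries (-1.15, -1.49 and -1.35), though the call in MII ended with equal *Gapdh* and with equal sums without the 10 most abundant genes. *Tcea2* was at 5.71, 0.794, 1.39 and 1.22 FPKM and was likewise lower in all 3 (-1.90, -1.49 and -1.59), most so in MII.

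In the HIF arm that VHL serves, 9 genes for HIF and its prolyl hydroxylases held 1 higher and 1 lower in TubA20 against GV, with a median change of 0.0028, or 0.67 over the 3 that reached 5 FPKM. *Hif1a* was at 40.6, 66.4, 67.8 and 93.2 FPKM and was called at 1.18 in TubA20 against GV, but not with the median change at 0 (0.95). *Egln2* was at 10.9, 6.08, 8.39 and 4.10 FPKM and fell by 1.22 in TubA20. *Egln1*, the main HIF prolyl hydroxylase, was at 0.67. Of 12 HIF target genes, 1 was higher and 3 lower, with a median change of -0.06, or -0.02 over the 7 that reached 5 FPKM. *Car9*, a carbonic anhydrase, was at 41.6, 20.0, 39.0 and 6.04 FPKM, low in TubA20 and high in GV and TubA10, and fell to -2.60 against GV and to -1.58 against MII. *Slc2a1*, a glucose transporter, was at 11.0, 3.39, 3.80 and 4.26 FPKM and was lower than GV in all 3 cultured libraries, most so in MII (-1.46, -1.33 and -1.20). *Pdk1* was at 2.43, 3.84, 3.36 and 6.02 FPKM and was called at 1.03 in TubA20 against GV, but not with the median change at 0 (0.84) or with equal upper quartiles, and *Bnip3* was at 0.87. The 5 genes of all lists that were lower in TubA20 than in MII were *Rnf7*, *Ube2f*, *Skp1a*, *Ell3* and *Car9*.

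**Figure D5:**
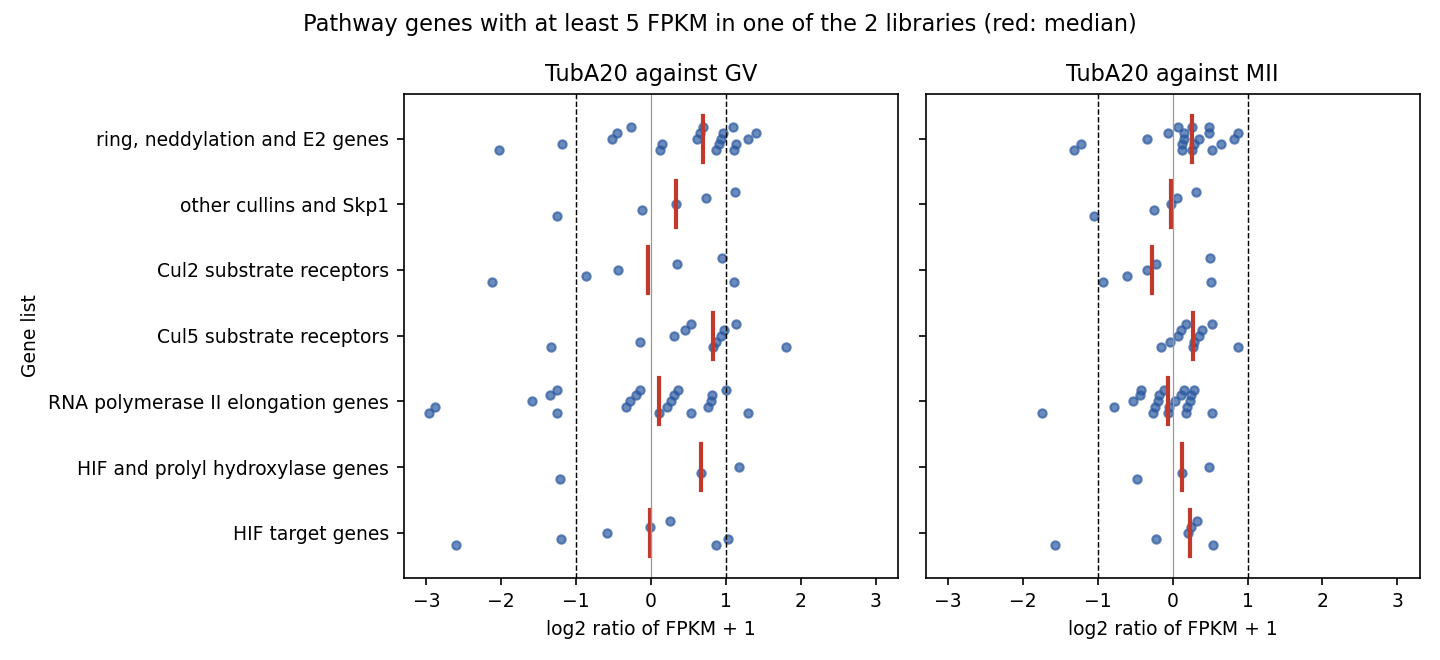
Differences in log2(FPKM + 1) of TubA20 against GV (left) and against MII (right) for the genes of 7 pathway lists that reach 5 FPKM in either library, 1 point per gene, with the median in red and 2-fold as dashed lines. Points lie past both dashed lines against GV, and past the lower line alone against MII.

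Maternal mRNAs can be held and later polyadenylated through a cytoplasmic polyadenylation element in the 3′ UTR. The letters TTTTAT or TTTTAAT were searched on the sense strand in the 3′ UTR of the transcript with the longest coding part. They occurred in *Eloa*, *Vhl*, *Cul2* and *Cul5* but not in *Elobl*, *Elob* or *Eloc*, and in 54.2% of 20105 genes. The 3′ UTRs of the last 3 genes are short, with 92, 129 and 119 bases against a median of 821, and 2 of 7 coding transcripts of *Eloc* with longer ones do hold the letters. Within the last 100 bases they occurred in *Eloa* alone of the 7 and in 17.1% of all genes. Tail lengths were not measured, and a link of these letters to the levels was not tested.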

How the data were processed

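Each of the 4 libraries came from 100 pooled oocytes, whose polyadenylated RNA was captured on oligo(dT) beads and sequenced as paired reads of 100 bases. The authors deposited FPKM values per Ensembl gene, made on mm10 with Cufflinks and its strand option. Their processing notes also name STAR 2.5.0 and Cuffdiff 2.2.1. The labels and the methods name different extraction kits. Symbols were found for 21794 of 21959 entries, and entries sharing a symbol were added up. The members and lists were chosen with earlier results of these data known. Each library was mapped to its group by title. With 1 library per condition there was no test: changes were differences in log2(FPKM + 1), called past 2-fold. Named were the members, the 5 highest genes per library, up to 4 genes per list with the largest change in TubA20 against GV and at least 5 FPKM, and the 5 genes nearest to *Elobl*. *Cdc34*, *Dcun1d4*, *Ube2d2a* and *Tcea1* were also named, because a scaling ended their call. Sequences came from GENCODE M21 (GRCm38), and similar transcripts were found with BLAST 2.17.0. Beyond the encoded residues of *Elobl* and *Elob*, no comparison of protein sequences was made. Python 3.11.15, numpy 2.4.6 and pandas 2.3.3 were used. Other pseudocounts, scalings, minimums and thresholds were tried.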

Additional observations from a re-analysis of the deposited data

Results flagged for a closer look

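*Elobl* and *Eloc* moved in opposite directions at the 2 doses of tubastatin A against MII. For *Elobl* the log2 change was -1.26 in TubA20 and 0.23 in TubA10. For *Eloc* it was -0.41 in TubA20 and 1.01 in TubA10. The doses are those of the titles, with which the sample descriptions and the paper's dose groups go. In the labels, the entry for treatment gives the reverse order. With 1 library per dose the difference between the doses was not tested. In both genes 1 of the 2 values is within 2-fold. The call of *Eloc* in TubA10 ended with the median change set to 0, where the value was 0.996. It also ended with both settings of equal sums (0.96) and equal upper quartiles (0.98), and it held with equal *Gapdh* (1.05).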

How the results depend on the processing

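No paired analysis was possible because each condition was 1 library, and for the same reason no library could be left out. Counts of the 7 genes moved as follows. In MII against GV the count of 1 became 2 with a pseudocount of 0.1 or 0.01, 3 at 1.5-fold, and 0 at 3-fold, with equal FPKM sums, with equal sums without the 10 most abundant genes and with equal *Gapdh*. In TubA10 against GV 0 became 1 with a pseudocount of 0.01. In TubA10 against MII 1 became 0 with the median change set to 0, both settings of equal sums, equal upper quartiles and 3-fold. In TubA20 against GV 2 became 3, with *Cul5* higher, at 1.5-fold and with equal *Gapdh*. In all 3 comparisons of TubA20 the count became 0 at 3-fold, where the *Elobl* changes of -1.12 (GV), -1.26 (MII) and -1.49 (TubA10) were no longer past the threshold. For the pathway lists, 17 genes in MII against GV became 29 with a pseudocount of 0.01, 41 at 1.5-fold and 2 at 3-fold. The 34 in TubA20 against GV became 58, 61 and 7 in the same settings. The 5 in TubA20 against MII became 14 with a pseudocount of 0.1, 24 with 0.01, 16 at 1.5-fold and 1 at 3-fold. The 10 in TubA10 against GV became 18 and 27 with these pseudocounts, 27 at 1.5-fold and 2 at 3-fold. The 0 in TubA10 against MII became 4, 17 and, at 1.5-fold, 6. The 9 in TubA20 against TubA10 became 18, 25, 28 at 1.5-fold and 3 at 3-fold. By FPKM multiplied by transcript length, an alternative added after seeing the data, *Elobl* ranked 6, 8, 4 and 64 in GV, MII, TubA10 and TubA20. The cause was not tested for the scalings and pseudocounts, while the thresholds act by construction. The other counts over all lists stayed within 1.5 times, though their splits into higher and lower genes moved as given in the report. Counts of single lists were not recomputed. No called change of any of the 7 genes reversed. Read counts are not in the values, so the counting error of *Vhl*, below 1 FPKM, is unknown.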
